A study of Mus musculus with 12 samples.

Results

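The genes described are 49 mouse genes of DNA damage signalling and repair, followed on 12 arrays in LSK cells. These are lineage-negative bone marrow cells positive for Sca1 and Kit, among which the stem cells and early progenitors of the blood are found. Of the 49 listed genes, 45 have a probe set that names no other gene, out of 22180 gene symbols tested. Fanca and Apex1 share their probe set with another gene, and Rbbp8 and Xrcc2 were not analysed here. The members were listed by function, with earlier results of these data known, and each is represented by its brightest probe set.

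The LSK cells were sorted from C57BL/6 mice in 4 groups of 3 arrays each. Mll5-/- NAC and wild-type (Mll5+/+) NAC mice had 1 g per liter of N-acetyl-L-cysteine (NAC), which scavenges reactive oxygen species, in their drinking water. Mll5-/- mock and wild-type mock mice went without it. NAC was given from the mating of the heterozygous parents on, so the treated mice were exposed before birth and through life. Mll5, now named Kmt2e, encodes a chromatin regulator, and the labels used here do not describe the knockout as restricted to a cell type. Age and sex of the mice are not in the labels used here. Since nothing there ties the 3 arrays of a group to different animals, the p-values reflect only how far these samples scatter, which may be technical.

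DNA breaks are sensed by the kinases ATM and ATR, which act through the checkpoint kinases CHK2 and CHK1 to hold the cell cycle. Breaks are then rejoined by end joining, which works throughout the cell cycle, or copied from the sister chromatid by homologous recombination in S and G2 phase, when many of its genes are also transcribed most. Damaged bases are removed by base excision, bulky lesions by nucleotide excision, and crosslinks through the Fanconi anaemia pathway, whose loss leads to stem cell failure in bone marrow. The title of the series names DNA damage, reactive oxygen species and interferon signalling as its subject, and the question here is how the transcripts of the repair machinery themselves stood in the 4 groups.

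Probe set signals are log2 values, so a difference of 1 is a doubling, and the median gene had a mean signal of 3.17. Of the 45 members, 42 lay above that level and 3 (Fancb, Lig4 and Pms2) at or below it. The mean signals ran from 2.59 for Fancb, a subunit of the Fanconi core complex, to 8.03 for Parp1, the sensor of strand breaks that makes poly(ADP-ribose), but signals of different probe sets do not rank transcripts by amount. The spread between arrays of a group was close to that of other genes, with a median SD of 0.22 over members and 0.20 over all genes. It was lowest for Msh6 (0.081) and highest for Ogg1 (0.46). All 8 measured LSK markers, Kit and Cd34 among them, were above the median gene level, and 0 of 6 T cell markers were. Of the markers of other cells, 4 of 7 for B cells, 4 of 9 for neutrophils and monocytes, 2 of 3 for erythroid cells and 5 of 6 for megakaryocytes were above it, and of the neutrophil and monocyte list S100a8, S100a9, Itgam and Csf1r were above it and Ly6g, Camp, Ltf, Ngp and Mmp8 below it. Wild-type mock replicate 1 and Mll5-/- NAC replicate 1 stood apart, with array weights of 0.71 and 0.54. Kmt2e, the targeted gene, averaged 7.12 ± 0.18 in Mll5-/- NAC and 7.55 ± 0.21 in wild-type NAC cells (SD, n = 3 each). In mock cells it averaged 7.27 ± 0.30 in Mll5-/- and 7.52 ± 0.15 in wild type, and since the part of the gene that its probe set reads is not given, these values do not check the labels.

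**Figure D1:**
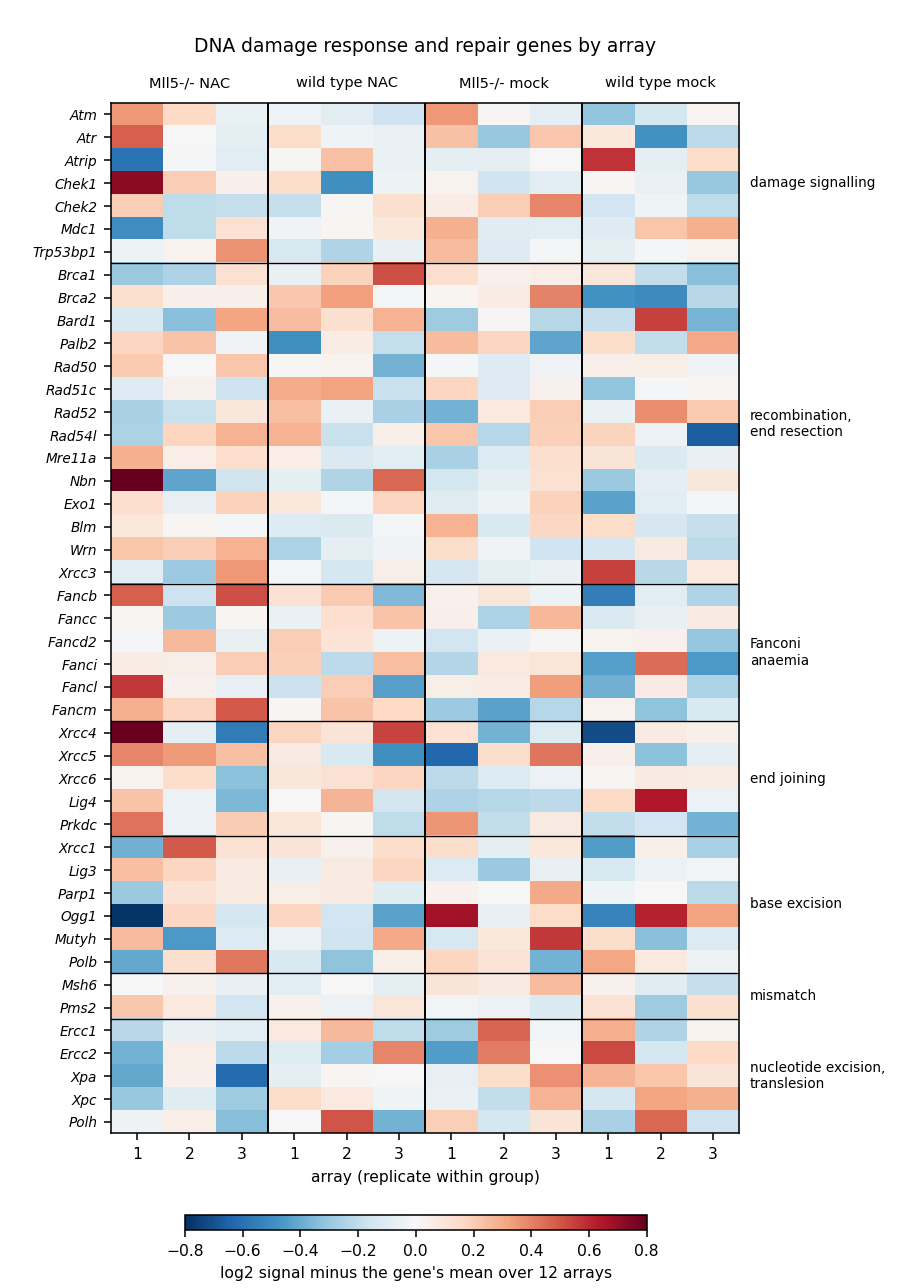
Each row is one of the 45 measured members, grouped by role, and each column is an array of a group. Colour gives the log2 signal minus the gene's own mean over 12 arrays. Brca2 is below its mean in all 3 wild-type mock arrays, Fancm is above its mean in the Mll5-/- NAC arrays and below it in the Mll5-/- mock arrays, and no role group is of one colour across a group of arrays.

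The effect of Mll5 loss without NAC was read from Mll5-/- mock against wild-type mock cells. Brca2, which loads the recombinase onto broken DNA, stood 1.48-fold higher in the mutant, and Chek2, the checkpoint kinase downstream of ATM, 1.27-fold higher, while Lig4, the ligase of end joining, was 1.39-fold lower. None of these differences passed over all genes: of the 45 members, 0 had an adjusted p under 0.05 in limma, against 0.00902% of all genes. The smallest adjusted p of a member was that of Brca2 (0.471). At an unadjusted p under 0.05, 2 members were higher and 1 was lower, against 3.55% and 3.08% of all genes. Mutant and wild-type arrays did not overlap for 4 members that were higher (Brca2, Chek2, Fancb and Msh6) and 2 that were lower (Lig4 and Xrcc6), against 5.94% and 5.46% of all genes. The median log2 difference over members was 0.067, with 28 of 45 above 0, and over all genes it was 0.0033, with 50.2% above 0. Leaving out wild-type mock replicate 1 gave a members' median of 0.018, leaving out wild-type mock replicate 3 gave 0.03, and leaving out Mll5-/- mock replicate 1 gave 0.043. The count at an unadjusted p under 0.05 was 5 without both arrays that stand apart.

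The same contrast in mice that drank NAC gave other members the smallest p-values. Xrcc5, which encodes the Ku80 subunit that caps broken ends, stood 1.42-fold higher in Mll5-/- NAC cells, Chek1, the checkpoint kinase downstream of ATR, 1.37-fold higher, and the helicase gene Wrn 1.28-fold higher. No member had an adjusted p under 0.05 (0 of 45, against 0% of all genes), and the smallest was that of Wrn (0.640). Unadjusted p-values under 0.05 were found for 3 members that were higher and 0 that were lower, against 3.46% and 3.71% of all genes. Arrays of the genotypes did not overlap for Wrn, Xrcc5 and Trp53bp1, which were higher, and for Xpc, which was lower, against 6.39% and 6.05% of all genes. The median over members was 0.0033, with 23 of 45 above 0, and over all genes it was 0.0067, with 50.7% above 0. The members' median had no stable sign: it was -0.027 without wild-type NAC replicate 2, -0.01 without Mll5-/- NAC replicate 3, 0.01 without Mll5-/- NAC replicate 1, 0.022 without Mll5-/- NAC replicate 2, 0.027 without wild-type NAC replicate 3 and 0.028 without wild-type NAC replicate 1. Without Mll5-/- NAC replicate 2 the count at an unadjusted p under 0.05 was 5.

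Over both treatments, 6 Mll5-/- against 6 wild-type arrays, 6 members had an unadjusted p under 0.05 and all 6 were higher in the mutant: Wrn, Prkdc, Atm, Fancl, Brca2 and Fancb, by 1.16-fold to 1.25-fold. The background was 4.74% of all genes higher and 4.34% lower at this p. Adjusted over all genes, 0 of 45 passed, against 0.00902%, and the adjusted p of these 6 lay between 0.493 and 0.550. All 6 mutant arrays were above or below all 6 wild-type arrays for 0 members, against 0.311% of all genes higher and 0.234% lower. Fancl is outside the rule for named genes and was named after its values were seen, to complete the 6. The members' median was 0.048, with 26 of 45 above 0, against 50.6% of all genes. This median was 0.02 without wild-type mock replicate 3, 0.021 without wild-type NAC replicate 2 and 0.024 without Mll5-/- mock replicate 3. The count of 6 became 2 without wild-type mock replicate 1, Mll5-/- NAC replicate 1 or wild-type NAC replicate 3, and 3 without Mll5-/- mock replicate 1 or 3, without wild-type mock replicate 3, or without both arrays that stand apart. Members whose genotype difference had the same sign in mock and in NAC, which share no array, numbered 24 of 45, against 55.2% of all genes.

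**Figure D2:**
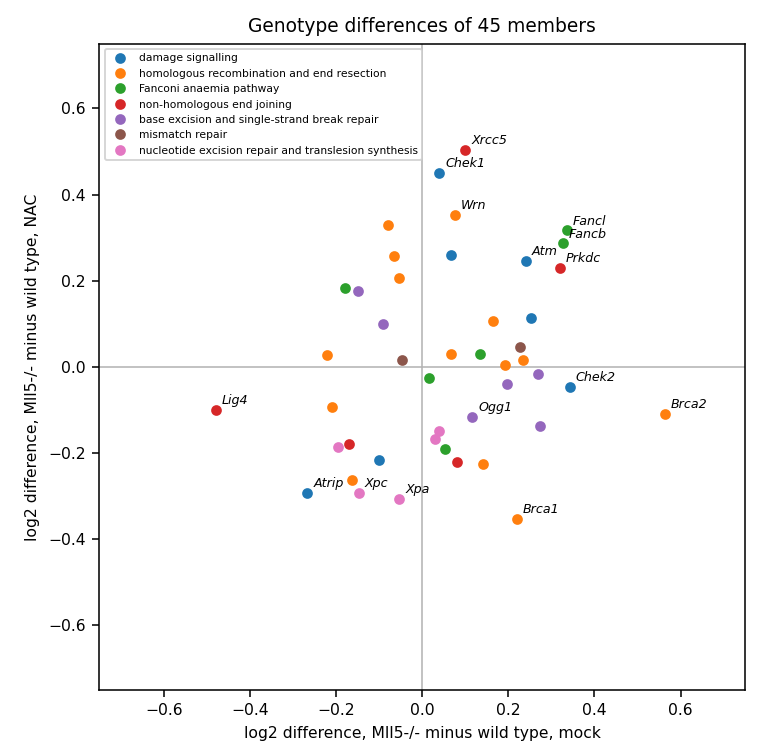
Each point is a member, coloured by role, with its log2 difference between Mll5-/- and wild-type arrays in mock on the horizontal axis and in NAC on the vertical axis. Atm, Prkdc, Fancl and Fancb sit at 0.23 to 0.34 on both axes, while Brca2 lies at 0.56 in mock and -0.11 in NAC. The standard errors of the members run between 0.11 (Msh6) and 0.31 (Ogg1) on each axis.

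NAC against mock asked what the quencher changes in each genotype. In Mll5-/- cells Fancm, the translocase that recognises stalled forks and crosslinks, stood 1.55-fold higher with NAC, the largest difference of a member in this contrast, and Xpa, a scaffold of nucleotide excision repair, was 1.39-fold lower. No member passed over all genes (0 of 45, against 0.00451%), and the smallest adjusted p was that of Fancm (0.406). Unadjusted, 2 members were higher (Fancm and Lig3) and 1 lower (Xpa), against 2.68% and 3.18% of all genes, and the count of 3 was 5 without Mll5-/- mock replicate 1. Arrays with and without NAC did not overlap for 5 members that were higher (Fancm, Lig3, Wrn, Chek1 and Rad50) and for 1 that was lower (Msh6), against 5.08% and 5.14%. The difference was above 0 for 27 of 45 members, against 49.6% of all genes. The median was 0.067 over members and 0 over all genes, and over members it was 0.0017 without Mll5-/- NAC replicate 1, 0.038 without Mll5-/- NAC replicate 2 or Mll5-/- mock replicate 1, 0.043 without Mll5-/- mock replicate 3, 0.013 without Mll5-/- mock replicate 2 and -0.045 without Mll5-/- NAC replicate 3.

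In wild-type cells the only member with an unadjusted p under 0.05 was Brca2, 1.5-fold higher with NAC (1 higher and 0 lower, against 2.96% each of all genes). Leaving out wild-type mock replicate 1 or 2 gave a count of 3, as did leaving out wild-type NAC replicate 1 or 3. It was 2 without wild-type mock replicate 3 or Mll5-/- NAC replicate 3, and 4 without both arrays that stand apart. Its adjusted p of 0.500 was the smallest of the members, so 0 of 45 passed, against 0.00902% of all genes. Arrays did not overlap for Brca2, Xrcc4 and Xrcc6, which were higher with NAC, and for Xpa, which was lower, against 5.42% and 5.32%. The difference was above 0 for 27 of 45 members, against 48.9% of all genes, with medians of 0.05 over members and -0.0033 over all genes. Leaving out wild-type mock replicate 3 gave a members' median of 0.022, and leaving out wild-type mock replicate 1 gave 0.078. Of the members, 25 of 45 had the same sign in both NAC contrasts, which share no array, against 52.9% of all genes. The interaction, which is the genotype difference in NAC minus that in mock, asked whether NAC altered the effect of the knockout. Brca2 (-0.67, SE 0.20) and Brca1 (-0.57, SE 0.24) had an unadjusted p under 0.05 in it, so 0 members were higher and 2 lower, against 2.02% and 2.2% of all genes. Leaving out Mll5-/- mock replicate 1, or wild-type mock replicate 3, gave a count of 1, and it was 4 without both arrays that stand apart. With limma's adjustment 0 of 45 passed, as 0% of all genes did, and every member's adjusted p was 0.999. The interaction was below 0 for 29 of 45 members, against 49.6% of all genes, with a median of -0.057 over members and 0 over all genes. Over members it was -0.0017 without wild-type mock replicate 1, -0.10 without wild-type mock replicate 2, -0.017 without wild-type mock replicate 3, -0.037 without Mll5-/- NAC replicate 3 and -0.087 without wild-type NAC replicate 3.

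The kinases at the head of the damage response, Atm and Atr, had mean signals that were higher in the mutant under both treatments. Of the 7 signalling genes, 6 had the same sign of genotype difference in both, against 55.2% of all genes. Atm gave log2 signals of 6.23, 6.04 and 5.83 in Mll5-/- NAC arrays and 5.85, 5.79 and 5.72 in wild-type NAC arrays. In mock cells it gave 6.23, 5.89 and 5.81 in Mll5-/- and 5.57, 5.74 and 5.90 in wild type. The mutant mean was higher under both treatments, by 0.25 in NAC and 0.24 in mock, and the arrays of the genotypes overlapped under both. Over both treatments the log2 difference was 0.24 (SE 0.11, adjusted p = 0.518), and it was 0.15 without both arrays that stand apart. Atr, the kinase of stalled forks, averaged 5.65 ± 0.30 in Mll5-/- NAC and 5.53 ± 0.11 in wild-type NAC cells, and 5.56 ± 0.31 in Mll5-/- mock and 5.31 ± 0.29 in wild-type mock cells (SD, n = 3 each). Its genotype difference was 0.11 in NAC and 0.25 in mock (SE 0.20 each, adjusted p = 0.944 and 0.857), and its arrays overlapped in both. Its partner Atrip, which brings ATR to single-stranded DNA, differed between genotypes by -0.28 (SE 0.13, adjusted p = 0.550). Its signal was 6.56, 7.14 and 7.07 in Mll5-/- NAC and 7.16, 7.39 and 7.10 in wild-type NAC. Its mock values were 7.08, 7.08 and 7.15 in Mll5-/- and 7.73, 7.08 and 7.30 in wild type. The lowest and the highest of these came from the 2 arrays that stand apart, and without both of them the difference was -0.099.

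The checkpoint kinases followed different patterns. Chek2 reached 5.75, 5.89 and 6.08 in Mll5-/- mock arrays, all above the wild-type mock values of 5.54, 5.66 and 5.49 (log2 difference 0.34, SE 0.15, adjusted p = 0.731). With NAC it was 5.89, 5.49 and 5.5 in Mll5-/- and 5.5, 5.70 and 5.82 in wild type, where the groups overlapped (-0.047, SE 0.15, adjusted p = 0.974). Chek1 was instead highest in Mll5-/- NAC cells, at 6.79, 6.27 and 6.11, against 6.21, 5.58 and 6.03 in wild-type NAC cells (0.45, SE 0.19, adjusted p = 0.679). In mock cells it lay at 6.10, 5.91 and 5.98 in Mll5-/- and 6.08, 6.02 and 5.77 in wild type. The value of 6.79 belongs to an array that stands apart, and without it the genotype difference in NAC was 0.25, and without wild-type NAC replicate 2 it was 0.27. Trp53bp1, whose product 53BP1 shields broken ends from resection, was 5.99, 6.06 and 6.39 in Mll5-/- NAC and 5.90, 5.79 and 5.97 in wild-type NAC arrays (0.26, SE 0.14, adjusted p = 0.730). These arrays do not overlap, the mock arrays do, and the mock difference was 0.067 (SE 0.14). Over both treatments 5 of the 7 signalling genes had a difference above 0, against 50.6% of all genes, with a median of 0.16.

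Among the genes of homologous recombination and end resection, Brca2 had the largest genotype difference in mock. Its signal was 6.44, 6.48 and 6.82 in Mll5-/- mock cells and 5.94, 5.91 and 6.20 in wild-type mock cells. The NAC arrays gave 6.55, 6.46 and 6.46 in Mll5-/- and 6.64, 6.75 and 6.41 in wild type. The 3 wild-type mock arrays were thus the lowest of all 12. The log2 difference between genotypes was 0.56 in mock (SE 0.14, adjusted p = 0.471) and -0.11 in NAC (SE 0.14, adjusted p = 0.915), and between wild-type NAC and wild-type mock it was 0.58 (SE 0.14, adjusted p = 0.500). Leaving out each array in turn kept the mock difference between 0.44 and 0.66. Since these 2 contrasts share the wild-type mock arrays, they are not independent of each other. Brca1, which acts with Bard1 as a ubiquitin ligase and directs breaks to resection, was 5.24, 5.29 and 5.66 in Mll5-/- NAC and 5.48, 5.72 and 6.05 in wild-type NAC cells. In mock cells it was 5.67, 5.57 and 5.59 in Mll5-/- and 5.63, 5.34 and 5.20 in wild type. Its mean was thus lower in the mutant with NAC (-0.35, SE 0.17, adjusted p = 0.709) and higher in the mutant without it (0.22, SE 0.17, adjusted p = 0.857), and the groups overlapped in both. Without wild-type NAC replicate 3 the difference in NAC was -0.20.

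Promoter windows from RefSeq (build GRCm38.p6, 250 bases before to 50 bases after the start site) are shown for Brca2, added for its values in wild-type mock cells after these were seen, and for Atm and Atrip, signalling genes with opposite genotype differences. Capitals mark TTTCCCGC or its reverse complement, a form of the site of the S phase regulators E2F, in Brca2, and CCAAT or its reverse complement, the site of NF-Y, in the other two. The match in Brca2 (chr5:150522371-150522670, plus strand) begins at -168 from the start site, that in Atm (chr9:53536622-53536921, minus strand) at -165 and that in Atrip (chr9:109074075-109074374, minus strand) at -10.
Brca2: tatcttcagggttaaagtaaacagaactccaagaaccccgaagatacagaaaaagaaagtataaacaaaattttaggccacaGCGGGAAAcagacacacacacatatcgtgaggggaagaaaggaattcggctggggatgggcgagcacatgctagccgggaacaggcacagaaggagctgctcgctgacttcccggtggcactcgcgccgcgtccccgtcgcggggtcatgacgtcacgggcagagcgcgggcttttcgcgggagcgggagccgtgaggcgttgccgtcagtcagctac
Atm: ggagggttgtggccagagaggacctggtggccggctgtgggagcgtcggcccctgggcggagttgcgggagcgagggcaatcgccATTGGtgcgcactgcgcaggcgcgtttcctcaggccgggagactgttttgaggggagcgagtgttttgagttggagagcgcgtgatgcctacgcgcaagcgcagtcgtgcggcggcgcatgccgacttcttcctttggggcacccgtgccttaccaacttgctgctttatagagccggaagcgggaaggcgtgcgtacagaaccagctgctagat
Atrip: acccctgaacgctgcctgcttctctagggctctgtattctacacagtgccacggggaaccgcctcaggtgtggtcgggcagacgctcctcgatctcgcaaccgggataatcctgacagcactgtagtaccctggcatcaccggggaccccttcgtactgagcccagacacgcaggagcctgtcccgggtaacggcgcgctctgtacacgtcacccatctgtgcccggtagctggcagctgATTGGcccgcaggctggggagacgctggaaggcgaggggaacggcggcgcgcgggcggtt
The table held 41 promoters of 37 of the measured members. TTTCCCGC, searched on both strands, was in 7 of the 41 (17.1%), which belong to Bard1, Brca2, Chek2, Mdc1, Msh6, Rad51c and Xrcc6, against 1.07% of all 32851 promoters and 1.41% of those of genes tested here. It was in 3 of 19 promoters of S phase genes (15.8%), 0 of 17 of G2 and M phase genes and 1 of 60 of other DNA repair genes (1.67%), so the members' share was close to that of S phase genes. The other E2F form searched, TTTGGCGC, was in 0 of 41, against 0.514% of all promoters and 26.3% of those of S phase genes. CCAAT was in 24 of 41 (58.5%), against 37.4% of all, 73.7% of S phase, 88.2% of G2 and M phase and 41.7% of other DNA repair promoters. TTTGAA, part of the cell cycle homology region, was in 1 of 41 (2.44%), against 17.9% of all, 5.26% of S phase, 76.5% of G2 and M phase and 16.7% of other DNA repair promoters. A match is a description of the letters, not a site shown to be bound. The 7 members with TTTCCCGC had a median log2 difference between genotypes of -0.18 in NAC and 0.14 in mock. Their interaction ran from -0.67 to -0.01 and was above 0 for 0 of 7, against 49.8% of all genes. For the 30 other members with a promoter in the table the medians were 0.017 in NAC and 0.06 in mock. Their interaction was above 0 for 13 of 30. Brca2 and Chek2, among the 7, were named for their small p in the interaction. A link between the motif and these differences was not tested.

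Of the remaining recombination genes, Wrn had the smallest p-value in NAC. This helicase, lost in Werner syndrome in humans, gave 7.02, 7.0 and 7.08 in Mll5-/- NAC cells and 6.55, 6.72 and 6.77 in wild-type NAC cells. In mock cells it gave 6.94, 6.77 and 6.64 in Mll5-/- and 6.66, 6.87 and 6.59 in wild type. The 3 Mll5-/- NAC arrays were the highest of all 12, with a genotype difference of 0.35 in NAC (SE 0.12, adjusted p = 0.640) and 0.077 in mock (SE 0.12, adjusted p = 0.946). Rad50, of the complex that tethers broken ends, differed between genotypes by 0.26 in NAC (SE 0.13) and by -0.067 in mock (SE 0.13), an interaction of 0.32 (SE 0.18, adjusted p = 0.999) that was 0.19 without wild-type NAC replicate 3. Palb2, the bridge between BRCA1 and BRCA2, had a difference of -0.29 between wild-type NAC and wild-type mock cells (SE 0.20, adjusted p = 0.886), on signals of 3.65, 4.20 and 3.95 with NAC and 4.28, 3.94 and 4.44 without, and leaving out wild-type mock replicate 3 gave -0.18, leaving out wild-type NAC replicate 1 -0.14. Over both treatments 9 of 14 genes of this role had a genotype difference above 0, against 50.6% of all genes, with a median of 0.086.

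**Figure D3:**
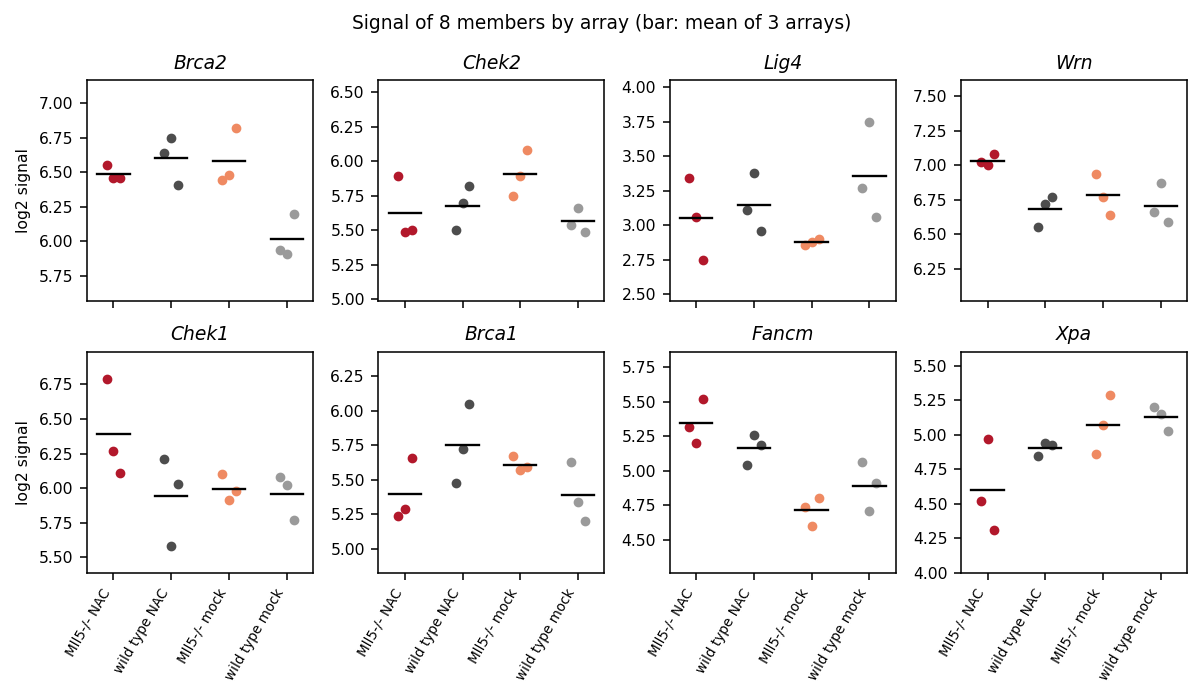
Log2 signals of 8 members are shown on the vertical axes, with a point for each of 3 arrays per group and a bar for their mean. All axes span the same range of 1.6. Brca2 is lowest in the 3 wild-type mock arrays, Wrn highest in the 3 Mll5-/- NAC arrays, and Fancm higher in both NAC groups than in mock of the same genotype on average, with overlap between the wild-type groups.

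Fanconi anaemia genes held the member with the smallest p-value of the NAC contrasts. Fancm was 5.32, 5.20 and 5.52 in Mll5-/- NAC cells and 4.74, 4.60 and 4.80 in Mll5-/- mock cells, with no overlap (0.63, SE 0.13, adjusted p = 0.406). In wild type it was 5.04, 5.26 and 5.19 with NAC and 5.06, 4.71 and 4.91 without, with overlap (0.27, SE 0.13, adjusted p = 0.860; 0.18 without wild-type mock replicate 2). The difference in the mutant lay between 0.55 and 0.71 in every alternative, and the smallest adjusted p over them was 0.302, with array weights. The interaction of 0.36 (SE 0.19, adjusted p = 0.999) did not pass, so the response was not shown to differ between the genotypes. Fancb, at or below the median gene level, differed between genotypes by 0.31 over both treatments (SE 0.14, adjusted p = 0.550), and Fancl, the ubiquitin ligase of the core complex, by 0.33 (SE 0.14, adjusted p = 0.519). Fancd2, the protein that this ligase modifies, differed between genotypes by -0.0050 (SE 0.097, adjusted p = 0.992) over both treatments. It averaged 5.44 ± 0.17 in Mll5-/- NAC and 5.47 ± 0.12 in wild-type NAC cells, and 5.32 ± 0.08 in Mll5-/- mock and 5.30 ± 0.20 in wild-type mock cells (SD, n = 3 each). All 6 measured members of the pathway were higher with NAC in wild type (median 0.20), against 48.9% of all genes. In the mutant 5 of 6 were higher (median 0.12), against 49.6%. Fance of the core complex, counted with the other DNA repair genes, was instead lower with NAC. Its difference was -0.58 in wild type (SE 0.19, adjusted p = 0.705) and -0.24 in the mutant (SE 0.19, adjusted p = 0.937).

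End joining genes pointed both ways. Lig4 was 2.86, 2.88 and 2.90 in Mll5-/- mock cells and 3.27, 3.75 and 3.06 in wild-type mock cells, without overlap (-0.48, SE 0.19, adjusted p = 0.721). With NAC it was 3.34, 3.06 and 2.75 in Mll5-/- and 3.11, 3.38 and 2.96 in wild type, with overlap (-0.10, SE 0.19, adjusted p = 0.951). These signals lie around the median gene level, and the mock difference was -0.28 without wild-type mock replicate 2. Prkdc, the catalytic subunit of DNA-PK, which Ku recruits, was 5.95, 5.47 and 5.72 in Mll5-/- NAC and 5.61, 5.53 and 5.31 in wild-type NAC cells. In mock cells it was 5.87, 5.32 and 5.59 in Mll5-/- and 5.32, 5.36 and 5.14 in wild type, and over both treatments the difference was 0.28 (SE 0.12, adjusted p = 0.505). Xrcc5 was 6.36, 6.31 and 6.21 in Mll5-/- NAC cells, above the 6.04, 5.85 and 5.48 of wild-type NAC cells (0.50, SE 0.23, adjusted p = 0.695). Its mock values of 5.34, 6.11 and 6.40 in Mll5-/- and 6.01, 5.64 and 5.90 in wild type overlapped. Xrcc6, its Ku70 partner, differed between genotypes by -0.17 in mock (SE 0.13, adjusted p = 0.857) and by -0.18 in NAC (SE 0.13, adjusted p = 0.812).

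Base excision and strand break repair genes had genotype differences of opposite sign in mock and in NAC for all 6 measured members. Among all genes 55.2% had the same sign in both. Some of these differences were smaller than their SE under both treatments. They were 0.12 in mock and -0.12 in NAC for Ogg1 (SE 0.31 each), and -0.09 and 0.10 for Lig3 (SE 0.12 each). Parp1 averaged 7.99 ± 0.23 in Mll5-/- NAC and 8.03 ± 0.09 in wild-type NAC cells, and 8.14 ± 0.17 in Mll5-/- mock and 7.94 ± 0.12 in wild-type mock cells (SD, n = 3 each). Its genotype difference was -0.040 in NAC and 0.20 in mock (SE 0.14 each, adjusted p = 0.977 and 0.848). Ogg1, the glycosylase that removes the oxidised base 8-oxoguanine, was 4.85, 5.80 and 5.5 in Mll5-/- NAC cells and 6.31, 5.57 and 5.78 in Mll5-/- mock cells. In wild type it was 5.81, 5.48 and 5.21 with NAC and 5.10, 6.25 and 5.96 without. These groups overlapped in both genotypes. The log2 difference for NAC was -0.50 in the mutant (SE 0.31, adjusted p = 0.902) and -0.27 in wild type (SE 0.31, adjusted p = 0.941), and the first was -0.24 without Mll5-/- NAC replicate 1 and -0.29 without Mll5-/- mock replicate 1. Lig3, the ligase that seals such breaks and also serves mitochondrial DNA, was 7.05, 6.98 and 6.88 in Mll5-/- NAC cells, above the 6.70, 6.51 and 6.75 of Mll5-/- mock cells (0.32, SE 0.12, adjusted p = 0.810). Polb, the gap-filling polymerase, differed by -0.25 between wild-type NAC and wild-type mock cells (SE 0.21, adjusted p = 0.916), and by -0.15 without wild-type mock replicate 1 or wild-type NAC replicate 2.

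Msh6, which recognises mismatched bases, had the least variable signal of the members. It was 7.32, 7.29 and 7.47 in Mll5-/- mock cells, above the 7.25, 7.12 and 7.03 of wild-type mock cells (0.23, SE 0.11, adjusted p = 0.772). With NAC it was 7.22, 7.25 and 7.16 in Mll5-/- and 7.13, 7.22 and 7.14 in wild type, and there the groups overlapped (0.047, SE 0.11, adjusted p = 0.963). Pms2, the other measured mismatch repair gene, was at or below the median gene level.

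The 5 members of nucleotide excision and translesion synthesis all had genotype differences below 0 in NAC (median -0.19) and NAC differences below 0 in the mutant (median -0.18). Of all 22180 genes, 10768 were below 0 in the first contrast and 11005 in the second, and these 2 contrasts share the Mll5-/- NAC arrays. Ddb1, counted with the other DNA repair genes, differed by 0.15 in the first (SE 0.11, adjusted p = 0.819) and by -0.097 in the second (SE 0.11, adjusted p = 0.962). Xpa was 4.52, 4.97 and 4.31 in Mll5-/- NAC cells and 4.86, 5.07 and 5.29 in Mll5-/- mock cells, with a difference of -0.47 (SE 0.16, adjusted p = 0.785). In wild type it was 4.85, 4.94 and 4.93 with NAC and 5.20, 5.15 and 5.03 without, which do not overlap, and the difference was -0.22 (SE 0.16, adjusted p = 0.895). Its mean was thus lower with NAC in both genotypes. Xpc, which finds bulky lesions across the genome, was 5.94, 6.15 and 5.96 in Mll5-/- NAC cells, below the 6.39, 6.32 and 6.22 of wild-type NAC cells (-0.29, SE 0.16, adjusted p = 0.730). Its mock values of 6.19, 6.05 and 6.52 in Mll5-/- and 6.11, 6.56 and 6.53 in wild type overlapped. In mock cells 3 of the 5 genes had a genotype difference below 0, against 10881 of all 22180 genes. Their median there was -0.053, against 0.0033 over all genes.

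Other DNA repair genes, of which 62 of 75 listed were measured, were read in the same fit. None passed over all genes in any of the 6 contrasts. Over both treatments 7 were higher in the mutant at an unadjusted p under 0.05 and 0 were lower, against 4.74% and 4.34% of all genes. The median was 0.042, with 38 of 62 above 0, against 50.6% of all genes. The smallest p-values belonged to Tipin, of the fork protection complex (0.49, SE 0.12, adjusted p = 0.261), and Ddb1, an adaptor of the ligase that handles ultraviolet lesions (0.25, SE 0.081, adjusted p = 0.372). Tipin averaged 7.92 ± 0.10 in Mll5-/- NAC and 7.46 ± 0.17 in wild-type NAC cells, and 7.65 ± 0.34 in Mll5-/- mock and 7.12 ± 0.21 in wild-type mock cells (SD, n = 3 each). Lower in the mutant with the smallest p were the glycosylase gene Neil1 (-0.39, SE 0.19, adjusted p = 0.577) and Fance of the Fanconi core complex (-0.26, SE 0.14, adjusted p = 0.596).

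Cell cycle genes were set beside the members, since many recombination genes are transcribed in S phase. The mean deviation of 20 S phase genes from their 12-array means was 0.081, 0.13 and 0.096 in Mll5-/- NAC and -0.0036, 0.11 and -0.018 in wild-type NAC arrays. In mock it was -0.048, 0.018 and 0.13 in Mll5-/- and -0.17, -0.13 and -0.20 in wild-type arrays. The 3 wild-type mock arrays were thus the lowest of all 12 for S phase genes, as they were for Brca2. They were not the lowest for the 14 genes of homologous recombination and end resection. There the mean deviation of Mll5-/- NAC replicate 2 (-0.0573) lay below that of wild-type mock replicates 1 (-0.0465) and 2 (-0.0408). Of the 20 S phase genes, 8 were higher in Mll5-/- mock than in wild-type mock cells at an unadjusted p under 0.05. None were lower, against 3.55% of all genes higher and 3.08% lower. Their median was 0.24, and none passed over all genes. In NAC the count was 1 higher and 0 lower, against 3.46% and 3.71% of all genes, with a median of 0.047. Rrm2, a ribonucleotide reductase subunit, had the smallest p of those higher over both treatments (0.46, SE 0.13, adjusted p = 0.315) and Cdt1, a licensing factor, of those lower (-0.088, SE 0.086, adjusted p = 0.796). G2 and M phase genes had medians of 0.21 in mock and 0.08 in NAC over 21 genes. Over both treatments 19 of 21 were above 0, against 50.6% of all genes. Their mean deviation in mock was 0.096, 0.011 and -0.013 in Mll5-/- and -0.23, 0.0315 and -0.34 in wild-type arrays, which overlapped. In NAC it was 0.11, 0.089 and 0.18 in Mll5-/- and -0.0014, 0.086 and -0.025 in wild-type arrays. The 3 wild-type mock arrays were thus not the lowest of all 12 for this list. Kif20a, a mitotic kinesin, had the smallest p of those higher over both treatments (0.41, SE 0.11, adjusted p = 0.297), and Ccnb2, a mitotic cyclin, was the 1 gene below 0 (-0.11, SE 0.12, adjusted p = 0.830). Whether the share of cycling cells has a part in the values of Brca2 or of the other members was not tested, and in bulk samples more cells of a type and more RNA per cell cannot be told apart.

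p53 target genes, which mark an active damage response, had differences in both directions. Over both treatments 8 of 18 measured were higher in the mutant, against 50.6% of all genes, and 10 were lower. Their median was -0.051, against 0.0033 over all genes. At an unadjusted p under 0.05, 0 were higher and 2 were lower, against 4.74% and 4.34% of all genes. Btg2, an antiproliferative target that is also an immediate early gene, averaged 8.46 ± 0.08 in Mll5-/- NAC and 8.99 ± 0.11 in wild-type NAC cells, and 8.85 ± 0.06 in Mll5-/- mock and 9.41 ± 0.16 in wild-type mock cells (SD, n = 3 each). Its difference over both treatments, -0.55 (SE 0.084, adjusted p = 0.0597), did not pass, although the genotypes' arrays did not overlap under either treatment. Cdkn1a, which encodes the cell cycle inhibitor p21, averaged 7.77 ± 0.25 in Mll5-/- NAC and 8.08 ± 0.24 in wild-type NAC cells, and 7.74 ± 0.31 in Mll5-/- mock and 7.79 ± 0.29 in wild-type mock cells (SD, n = 3 each). Its difference over both treatments was -0.18 (SE 0.14, adjusted p = 0.749). Sesn2, a stress-induced regulator of growth signalling, had the smallest p of those higher (0.25, SE 0.14, adjusted p = 0.619).

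**Figure D4:**
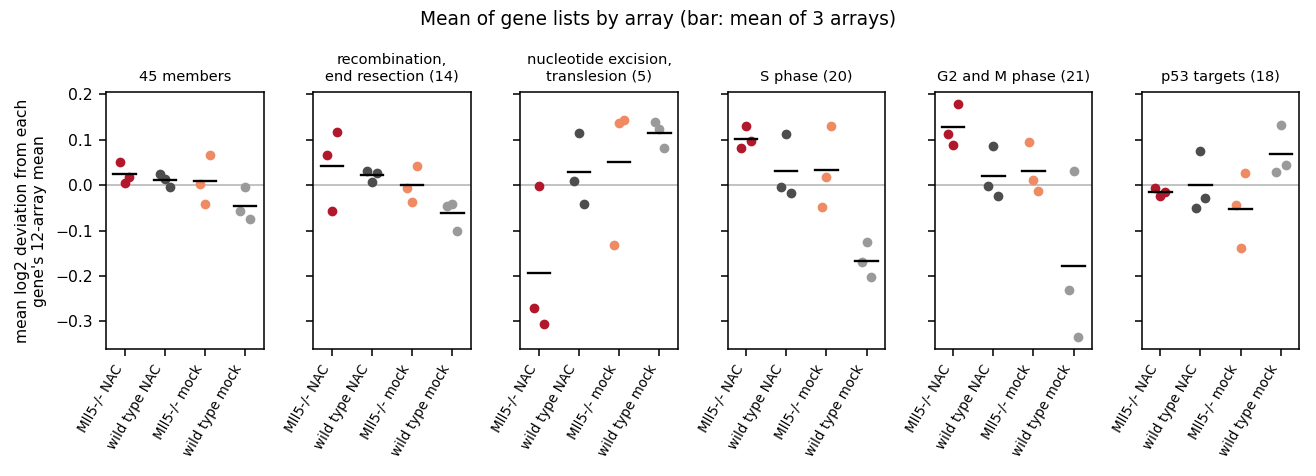
The vertical axis gives the mean over the genes of a list of their log2 deviation from their own 12-array means, with a point for each array and a bar for the mean of 3 arrays. The means over the 45 members lie between -0.074 and 0.067, while S phase genes reach -0.20 in wild-type mock arrays. G2 and M phase genes reach -0.34 in wild-type mock replicate 3. The 5 nucleotide excision and translesion members reach -0.31 in Mll5-/- NAC replicate 3.

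The cell makeup of the arrays was read from marker lists. The mean signal of 8 LSK markers was 7.51 to 7.74 in Mll5-/- NAC and 7.76 to 7.88 in wild-type NAC arrays, and 7.89 to 8.13 in Mll5-/- mock and 7.85 to 8.20 in wild-type mock arrays. This list mean was thus lowest in the group where Fancm and Wrn were highest, but 2 markers did not follow it. Cd48 had its highest mean in Mll5-/- NAC cells (8.44, against 8.22 in wild-type NAC cells). Procr had its lowest mean in wild-type NAC cells (5.38, against 5.62 in Mll5-/- NAC cells). Megakaryocyte markers, 6 genes, ranged from 5.45 to 5.5 in Mll5-/- NAC and 4.59 to 4.82 in wild-type NAC arrays, and from 5.12 to 5.6 in Mll5-/- mock and 4.64 to 4.99 in wild-type mock arrays. Markers of neutrophils and monocytes, 9 genes, ranged from 3.94 to 4.32 in Mll5-/- NAC and 4.32 to 4.53 in wild-type NAC arrays, and from 3.48 to 4.27 in Mll5-/- mock and 4.05 to 4.43 in wild-type mock arrays. The 7 B cell markers ranged from 3.21 to 3.68 in Mll5-/- NAC and 3.66 to 3.88 in wild-type NAC arrays. In mock they ranged from 3.41 to 3.61 in Mll5-/- and 3.57 to 3.71 in wild-type arrays. Of these 7, 7 were lower in the mutant in NAC, against 10768 of all 22180 genes. In mock 5 were lower and 2 higher, against 10881 of all genes lower. The 6 T cell markers lay between 2.46 and 2.74 and the 3 erythroid markers between 3.49 and 3.95 in all arrays. S100a8 and S100a9, calcium-binding proteins abundant in neutrophils and monocytes, had mean signals that were lowest in Mll5-/- mock cells. S100a8 averaged 9.0 in Mll5-/- NAC and 9.49 in wild-type NAC cells, and 7.5 in Mll5-/- mock and 9.11 in wild-type mock cells. S100a9 averaged 5.84 in Mll5-/- NAC and 6.85 in wild-type NAC cells, and 4.87 in Mll5-/- mock and 6.25 in wild-type mock cells. Of the 9 genes of this list, 7 were lower in Mll5-/- mock than in wild-type mock cells and 2 were higher. The 2 were Itgam (5.91 against 5.74) and Csf1r (5.51 against 5.04), which lie above the median gene level, as S100a8 and S100a9 do. These 4 markers therefore did not shift in one direction. The part of cell makeup in the members' values was not tested.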

How the data were processed

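Biotin-labelled RNA of sorted LSK cells was hybridised to 12 arrays. The deposited values are on a log2 scale. Per the submitters' processing notes they come from Affymetrix Power Tools and RMA, for which the sources used here give no version. The log base is inferred, since values lie between 0.74 and 13.23. Among 41345 probe sets, 23521 name 1 gene symbol, 1814 name several and 16010 name none. The probe set with the highest mean represents each symbol, and dim genes were kept. limma 3.58.1 (R 4.3.3) was run with 1 mean for each of the 4 groups, with Benjamini-Hochberg adjustment across 22180 genes and a threshold of 0.05, after the code was tested on simulated data. Arrays sharing a replicate number did not deviate together (18 pairs, r from -0.057 to 0.056), and these numbers follow accession order, so they do not pair samples.

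The members and gene lists were chosen with earlier results of these data known. Members named are the 3 with the smallest p per direction in each contrast, textbook genes of each role, and the brightest and dimmest. Outside that rule, Atr, Fancl, Pms2, Xrcc4, Xrcc6 and the genes listed for a promoter motif were named after their values were seen. Of other repair genes the 2 of smallest p per direction over both treatments are named, and of each cell cycle or p53 list the 1, with Cdkn1a. Alternatives were dropping dim genes, weighting arrays, quantile normalization anew, median centring, a trended and robust variance, averaging probe sets, blocking on replicate number, fitting only the groups compared, a looser threshold and leaving arrays out. Precision is limited by the number of arrays, with a median SE of 0.16 between 2 groups.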

Additional observations from a re-analysis of the deposited data

How the results depend on the processing

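The count of 0 members past the threshold held in every contrast in all 130 recomputed counts, including an adjusted p under 0.1 and the replicate block, with which the counts stayed at 0. The direction of all 36 named differences held in 742 recomputed values, and their smallest adjusted p was 0.302. These 36 were picked for their small p on the same arrays, and some settings leave the difference unchanged. The held direction is therefore not independent evidence. The members' median moved by less than the spread between replicates in 111 recomputed values and by more in 13. Part of the 111 was fixed in advance: a changed variance, or leaving out an array of a group not compared, cannot move the median. In the contrast of genotypes in mock it was 0.018 without both arrays that stand apart, and it ranged from 0.018 to 0.085 when each array was left out in turn. For NAC in the mutant it was 0.028 with array weights and 0.0017 without both arrays, and from -0.045 to 0.067 with each array left out. For the interaction it was -0.095 with the filter and -0.02 with median centring, and from -0.10 to -0.0017 with each array left out. The filter leaves out 3 dim members, and the cause of the other shifts was not tested. With 3 arrays in a group the number of arrays limits what differences can be detected.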
